A study of Sus scrofa with 5 samples.

Results

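The core genes of transforming growth factor beta (TGF-beta) signalling were examined in ovarian follicles of Indian Ghoongroo pigs, a breed of Sus scrofa. The 10 genes were taken by symbol: the ligands TGFB1, TGFB2 and TGFB3, the receptors TGFBR1, TGFBR2 and TGFBR3, and the signal transducers SMAD2, SMAD3, SMAD4 and SMAD7. Each symbol matched exactly 1 of the 30822 genes listed in the files. The study set 3 RNA-seq libraries of large follicles against 2 libraries of small follicles, all from females, with no treatment or genotype named beyond follicle size. The labels call the replicates biological but name no animals, no number of follicles per library and no diameters. The p-values therefore measure only the spread between these samples.

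TGF-beta ligands are secreted in a latent complex and, once released, bind the type II receptor TGFBR2, which recruits and phosphorylates the type I receptor TGFBR1. TGFBR1 phosphorylates SMAD2 and SMAD3, which join SMAD4 and enter the nucleus, while SMAD7 is an inhibitor that the pathway itself induces. In the ovary the ligands are made by theca and granulosa cells, and SMAD2 and SMAD3 also carry the signals of activin and of the oocyte factor GDF9.

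All 10 genes were expressed in every library, and no member differed between large and small follicles past the threshold. The lowest values in large follicles relative to small ones were those of SMAD3, with means of 4.94 ± 1.44 FPKM in large (SD, n = 3) and 9.60 ± 2.65 FPKM in small follicles (SD, n = 2), TGFB3, with 11.1 ± 0.402 FPKM in large and 16.5 ± 4.37 FPKM in small follicles, and SMAD2, with 13.6 ± 2.45 FPKM in large and 18.7 ± 3.32 FPKM in small follicles. In these 3 genes every large follicle library lay below both small follicle libraries. The most abundant ligand, TGFB1, had means of 25.3 ± 3.42 FPKM in large and 23.4 ± 3.38 FPKM in small follicles, less apart than the replicates of either group. FPKM is the number of fragments per kilobase of gene, scaled to the fragments of the library, so levels can be set side by side between genes.

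The test covered the 13087 genes that reached 1 FPKM in 2 or more libraries, among them all 10 members. The test was limma on log2(FPKM + 1), with Benjamini-Hochberg adjustment over all genes tested and a call at an adjusted p under 0.05. By limma 0 of the 10 members were called, where 0.978% of all genes tested were called, and 1 member, SMAD3, passed 0.05 before adjustment, as did 10.4% of all genes. A second tool, voom on fragments recovered from the FPKM values, also called 0 members (1.35% of all genes) and passed only SMAD3 before adjustment (13.4% of all genes). Large and small follicles did not overlap in 3 of the 10 members, against 26.1% of all genes tested. All 3 were lower in large follicles, as were 15.2% of all genes. The log2 fold change, large minus small, was negative in 7 members and 60.1% of all genes. It was positive in TGFB1, TGFBR2 and SMAD7, and all 3 of these turned negative when libraries were scaled to a common FPKM sum. Its median was -0.30 over the members and -0.08 over all genes tested.

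Library totals were 9523739 to 11507527 fragments, and between 42 and 2849 fragments lay behind each member in each library. Most genes were shifted the same way between libraries of 1 group. Small follicle replicate 1 was below small follicle replicate 2 in 79.6% of all genes and in 9 of the 10 members, and replicate 2 was the lowest large follicle library in 62.0% of genes and in 6 of the 10 members. Median-of-ratios factors, which measure this shift, were 1.01, 0.827 and 1.11 for large follicle replicates 1, 2 and 3, and 0.903 and 1.20 for small follicle replicates 1 and 2. Of the markers for granulosa and for theca cells, 10 of 10 each had at least 1 FPKM in every library. The summed level of the granulosa markers was 6666 to 15380 FPKM in large and 4848 to 7133 FPKM in small follicles, while their median log2(FPKM + 1) was 4.85 to 5.65 in large and 5.54 to 5.99 in small follicles, and both measures overlapped. Theca sums were 2160 to 4494 FPKM in large and 1018 to 1302 FPKM in small follicles. Sums of the other lists that did not overlap were those of myeloid (337 to 459 FPKM in large, 265 to 288 FPKM in small), endothelial (313 to 340 FPKM in large, 283 to 295 FPKM in small), red blood cell (1006 to 1680 FPKM in large, 234 to 703 FPKM in small), oocyte (46.5 to 63.8 FPKM in large, 26.7 to 38.5 FPKM in small) and surface epithelium markers (30.2 to 39.6 FPKM in large, 25.0 to 30.0 FPKM in small), and of the smooth muscle and pericyte markers (3988 to 4903 FPKM in large, 3458 to 3554 FPKM in small). Lymphocyte sums overlapped, at 15.6 to 30.8 FPKM in large and 13.9 to 17.1 FPKM in small follicles. The endothelial medians overlapped, unlike the sums, and so did those of the oocyte markers (1.933 to 2.229 in large, 2.139 to 2.317 in small). Smooth muscle and pericyte medians also overlapped (6.938 to 7.45 in large, 6.887 to 6.985 in small). Lymphocyte medians did not (1.356 to 1.605 in large, 1.203 to 1.205 in small). Of all markers, CYP17A1 (theca), LYZ (myeloid) and MFAP4 (fibroblast) were called by limma. Of the tested markers, 7 of 10 theca, 9 of 10 myeloid, 8 of 10 endothelial and 4 of 4 red blood cell genes had positive log2 fold changes. So did 4 of 4 surface epithelium, 5 of 6 lymphocyte, 5 of 8 fibroblast, 5 of 9 smooth muscle and pericyte and 3 of 5 oocyte genes. For granulosa it was 3 of 10, and over all genes tested 60.1% were negative. No marker of any list was at 0 in all libraries. The part of these cells in the members' values was not tested. In whole follicles, fewer cells of a type and less RNA per cell cannot be told apart.

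**Figure D1:**
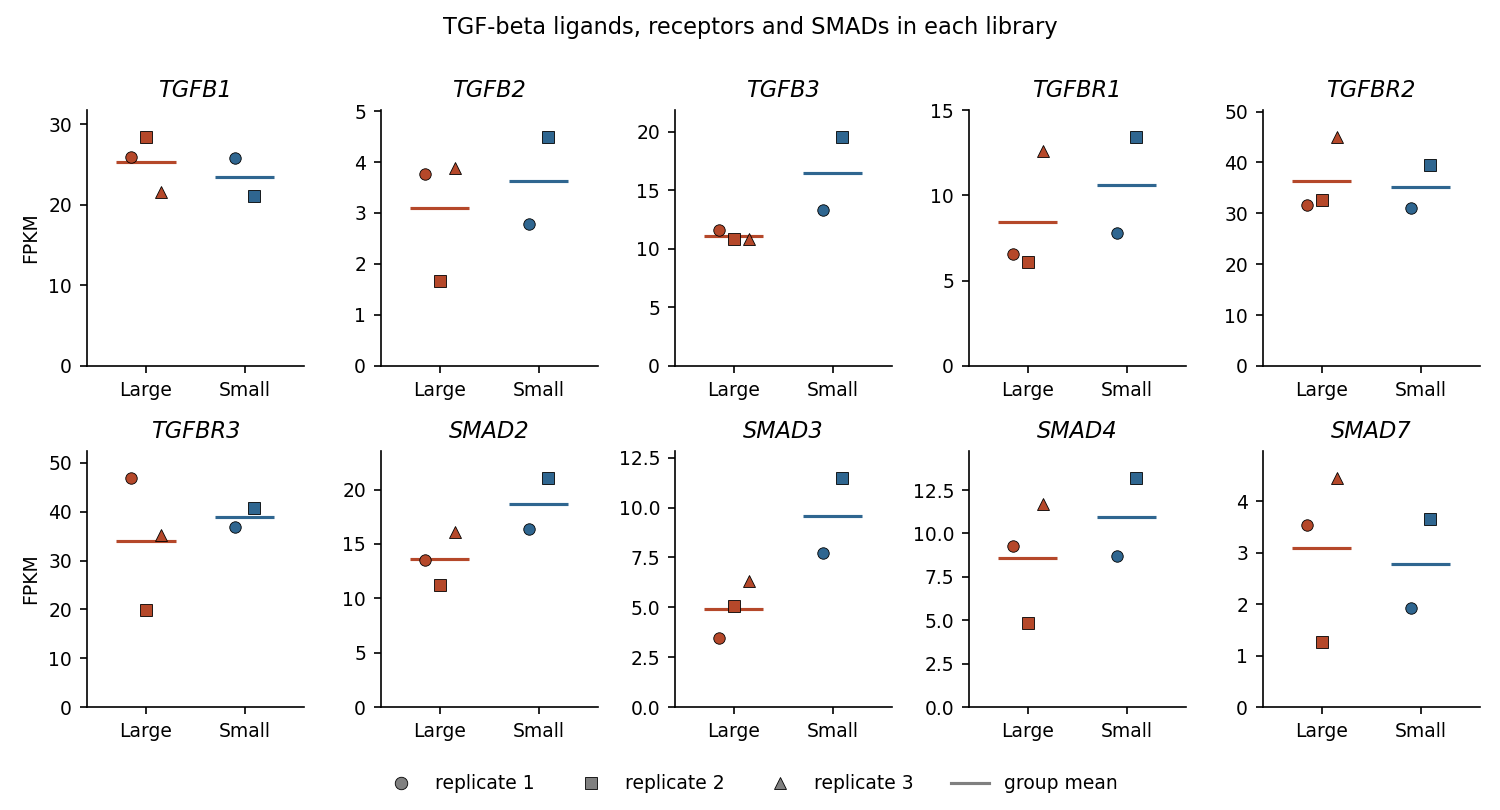
FPKM of the 10 members in each library (y axis, linear, from 0) in large (left, n = 3) and small follicles (right, n = 2); symbols mark the replicate and lines the group mean. TGFB3, SMAD2 and SMAD3 lie lower in all 3 large follicle libraries than in both small ones, and the other 7 members overlap.

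Among the ligands, TGFB1, the isoform known for its action on immune and connective tissue cells, was the most abundant in every library. TGFB1 (gene 397078, Sscrofa11.1 chromosome 6, 49332169 to 49348642, minus strand) had 25.9, 28.4 and 21.6 FPKM in large follicles, against 25.8 and 21.0 FPKM in small follicles. The groups overlapped, and the highest large follicle library was 1.31 times the lowest. Its log2 fold change was 0.11 with a 95% interval of -0.40 to 0.61 (limma adjusted p = 0.932), which corresponds to a ratio of 0.76 to 1.52. It was -0.04 without small follicle replicate 2. A gene on the same strand, LOC110261354, overlaps its annotation and had at most 2.54 FPKM in any library.

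TGFB3, which in the mouse embryo is needed for palate and lung formation, was the second ligand in level. TGFB3 (gene 397400, chromosome 7, 99133873 to 99162239, minus strand) had 11.6, 10.9 and 10.9 FPKM in large follicles, against 13.4 and 19.5 FPKM in small follicles. In FPKM as deposited the 3 large follicle libraries were nearly alike, from 347 to 425 fragments each. On that scale the distance between the groups came mostly from small follicle replicate 2. Its counting interval was 10.5 to 12.7 FPKM in the highest large follicle library and 12.1 to 14.7 FPKM in the lowest small follicle library, and these overlap. TGFB3 had a log2 fold change of -0.50, SE 0.25, and an interval of -1.06 to 0.05 (limma adjusted p = 0.544). IFT43, a gene of ciliary transport on the opposite strand, overlaps TGFB3 in the annotation and had 24.3 to 36.2 FPKM in large and 21.5 to 26.7 FPKM in small follicles. The labels name a stranded kit but not whether strand was used in counting, so fragments of this pair may be mixed.

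TGFB2, a ligand that depends on TGFBR3 for tight binding to its receptor, was the least abundant ligand. TGFB2 (gene 397084, chromosome 10, 8306136 to 8435307, plus strand) had 3.77, 1.66 and 3.87 FPKM in large follicles, against 2.78 and 4.49 FPKM in small follicles. Large follicle replicate 2 was the low library, with 59 fragments and a counting interval of 1.27 to 2.14 FPKM that does not reach the other libraries. Its fold change was -0.20 on the log2 scale (limma adjusted p = 0.915), with a 95% interval of 0.499 to 1.51 as a ratio, and its sign turned without large follicle replicate 2 (0.08) or without small follicle replicate 2 (0.07).

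The 3 ligands together had 41.3, 40.9 and 36.4 FPKM in large follicles and 42.0 and 45.1 FPKM in small follicles. TGFB1 made up 62.8%, 69.4% and 59.5% of this sum in large follicles, against 61.5% and 46.7% in small follicles, and TGFB3 made up 28.0%, 26.6% and 29.9% in large, against 31.8% and 43.4% in small follicles. The share of TGFB3 was thus lower in every large follicle library. On the log2(FPKM + 1) scale the ratio of TGFB3 to TGFB1 was -1.11 ± 0.19 in large follicles (SD, n = 3) and -0.50 ± 0.57 in small follicles (SD, n = 2). It differed by -0.61 with no overlap (exact two-sided permutation p = 0.200, and 0.500 adjusted over 5 ratios). The exact test used here doubles the smaller one-sided p. With 3 libraries against 2 it cannot give less than 0.2, so none of the 5 ratios could pass. The ratio of TGFB2 to TGFB1 overlapped between the groups and differed by -0.31 (exact p = 0.800, adjusted 0.800).

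**Figure D2:**
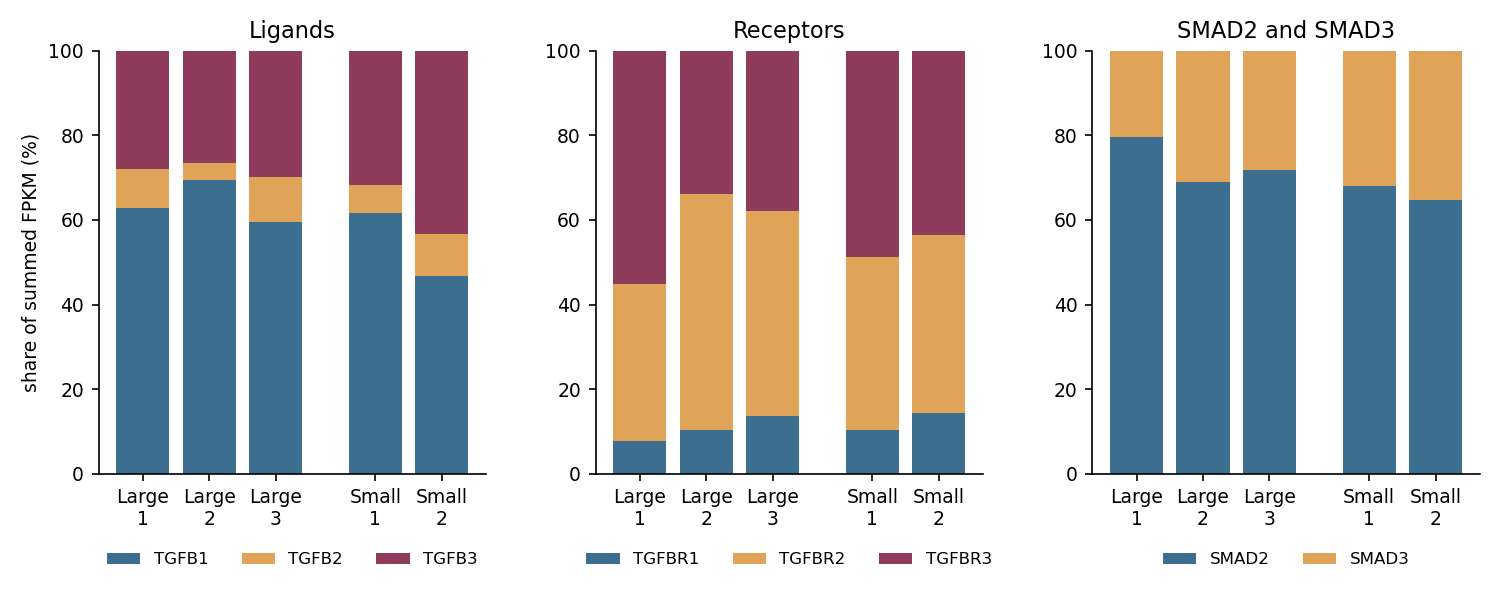
Share of each gene in the summed FPKM (y axis, percent) of the 3 ligands, of the 3 receptors, and of SMAD2 with SMAD3, as stacked bars for each large and small follicle library. The TGFB3 share is 26.6% to 29.9% in large and 31.8% to 43.4% in small follicles, while the receptor shares overlap.

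The receptors were led by TGFBR3 and TGFBR2. TGFBR2 (gene 100038019, chromosome 13, 16784370 to 16875828, plus strand), the type II kinase that binds the ligand first, had 31.6, 32.7 and 45.0 FPKM in large follicles, against 31.0 and 39.4 FPKM in small follicles. The groups overlapped, with means of 36.4 ± 7.44 FPKM in large and 35.2 ± 5.96 FPKM in small follicles. Between them the log2 fold change was 0.04, with an interval of -0.49 to 0.57 (limma adjusted p = 0.980), the value nearest to 0 among the members. It was -0.12 without large follicle replicate 3 and -0.13 without small follicle replicate 1.

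TGFBR1 (gene 396665, chromosome 1, 240842735 to 240918267, plus strand), the type I kinase that phosphorylates SMAD2 and SMAD3, had 6.56, 6.08 and 12.6 FPKM in large follicles, against 7.81 and 13.4 FPKM in small follicles. The replicates of each group lay far apart: the highest was 2.08 times the lowest in large and 1.72 times the lowest in small follicles. A log2 fold change of -0.32 had an interval of -1.13 to 0.48 (limma adjusted p = 0.850) and became 0.03 without small follicle replicate 2. TGFBR1 RNA was below TGFBR2 RNA in each library. Their ratio on the log2(FPKM + 1) scale was -2.04 ± 0.25 in large and -1.67 ± 0.26 in small follicles, a difference of -0.36 with overlap (exact p = 0.400, adjusted 0.667).

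TGFBR3 (gene 397512, chromosome 4, 125109939 to 125310788, plus strand), also called betaglycan, is a co-receptor that presents TGF-beta ligands and also binds inhibin. It had 46.9, 19.9 and 35.3 FPKM in large follicles, against 36.9 and 40.9 FPKM in small follicles. Large follicles thus held both the highest and the lowest library, with a spread of 2.36 times, against 1.11 times between the small follicle libraries. With at least 1049 fragments in each library, the counting intervals of the large follicle libraries (45.2 to 48.6, 18.7 to 21.1 and 33.7 to 36.9 FPKM) do not overlap. Between groups the log2 fold change was -0.27, with an interval of -0.99 to 0.45 (limma adjusted p = 0.869). It became 0.07 when large follicle replicate 2 was left out. TGFBR3 exceeded TGFBR2 in large follicle replicate 1 and in both small follicle libraries, but not in large follicle replicates 2 and 3. Their log2 ratio differed by -0.31 (exact p = 0.600, adjusted 0.75).

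SMAD3 (gene 397260, chromosome 1, 164998457 to 165124455, plus strand), a receptor-regulated SMAD that binds DNA directly, stood farthest apart between the groups among the members. It had 3.44, 5.07 and 6.30 FPKM in large follicles, against 7.72 and 11.5 FPKM in small follicles. Every large follicle library was lower than both small follicle libraries, and the values rest on 161 to 268 fragments per library in large and 299 to 468 fragments in small follicles. The counting intervals of the nearest pair were 5.57 to 7.10 FPKM in large follicle replicate 3 and 6.87 to 8.65 FPKM in small follicle replicate 1, which overlap slightly. SMAD3 had a log2 fold change of -0.84, SE 0.32, with an interval of -1.55 to -0.13, and it missed the threshold once adjusted over all genes (limma adjusted p = 0.367). Over the 15 alternative settings the log2 fold change was negative in 15. With no overlap, leaving out a library or changing the pseudocount could not turn its sign, and the filters and the variance trend leave it as it was. In settings with at least 2 libraries per group its adjusted p ranged from 0.183 (voom) to 0.882 (limma with the replicate block). AAGAB, a gene of vesicle traffic on the opposite strand, overlaps SMAD3 in the annotation and had 9.79 to 14.0 FPKM in large and 8.36 to 12.1 FPKM in small follicles. As with TGFB3 and IFT43, fragments of SMAD3 and AAGAB may be mixed.

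SMAD2 (gene 100155304, chromosome 1, 97415360 to 97511388, minus strand), whose main form does not bind DNA directly, was the most abundant SMAD. It had 13.5, 11.2 and 16.1 FPKM in large follicles, against 16.3 and 21.0 FPKM in small follicles. The groups did not overlap, but large follicle replicate 3 and small follicle replicate 1 were within counting error of each other, with intervals of 15.3 to 17.0 FPKM in the large and 15.5 to 17.3 FPKM in the small follicle library. Its log2 fold change was -0.43, SE 0.25, with an interval of -0.99 to 0.13 (limma adjusted p = 0.641). SMAD3 made up 20.3%, 31.1% and 28.1% of the summed FPKM of SMAD2 and SMAD3 in large follicles, against 32.1% and 35.3% in small follicles. Thus SMAD2 RNA exceeded SMAD3 RNA in all 5 libraries. On the log2(FPKM + 1) scale the ratio of SMAD3 to SMAD2 was -1.32 ± 0.36 in large and -0.91 ± 0.12 in small follicles, a difference of -0.41 with no overlap (exact p = 0.200, adjusted 0.500).

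After median-of-ratios scaling, which removes the shift that most genes shared within a library, the same 3 members were those without overlap. SMAD2 then had 13.4, 13.6 and 14.6 in large follicles, against 18.1 and 17.5 in small follicles, in scaled FPKM. SMAD3 had 3.41, 6.13 and 5.70 in large, against 8.56 and 9.55 in small follicles, and TGFB3 had 11.5, 13.2 and 9.84 in large, against 14.8 and 16.3 in small follicles. The replicates of SMAD2 lay closer together than before in both groups. Those of TGFB3 lay farther apart in large follicles (SD 0.402 before and 1.66 after) and closer together in small follicles (SD 4.37 before and 1.04 after). Of all genes, 14.5% were lower in large follicles without overlap on this scale, against these 3 of the 10 members. The limma adjusted p values were 0.506 for SMAD2, 0.224 for SMAD3 and 0.450 for TGFB3, so none was called.

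**Figure D3:**
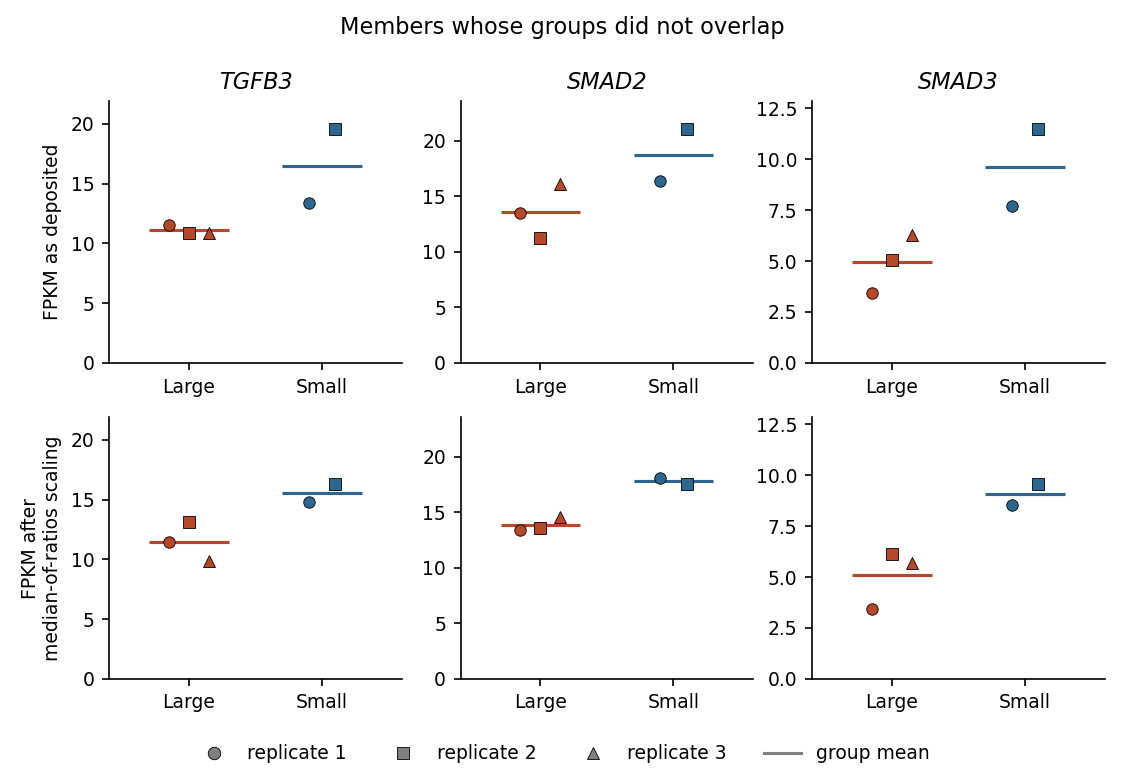
TGFB3, SMAD2 and SMAD3 in FPKM as deposited (upper row) and after median-of-ratios scaling (lower row) in large (left) and small follicles (right); symbols mark the replicate and lines the group mean. The scaled SMAD2 values are 13.4 to 14.6 in large and 17.5 to 18.1 in small follicles.

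SMAD4 (gene 397142, chromosome 1, 100521843 to 100633501, plus strand), the common partner of the receptor-regulated SMADs of both the TGF-beta and the bone morphogenetic protein (BMP) branch, had 9.26, 4.87 and 11.7 FPKM in large follicles, against 8.70 and 13.2 FPKM in small follicles. Large follicle replicate 2 was the low library, and the other 4 overlapped between the groups. A log2 fold change of -0.36, with an interval of -1.16 to 0.44 (limma adjusted p = 0.833), became -0.04 when that library was left out. ELAC1, on the same strand, overlaps SMAD4 in the annotation and had 1.05 to 2.34 FPKM.

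SMAD7 (gene 100521305, chromosome 1, 98512800 to 98543924, minus strand), which blocks TGFBR1 and recruits ubiquitin ligases to it, had the lowest level of the members. It had 3.55, 1.26 and 4.45 FPKM in large follicles, against 1.92 and 3.65 FPKM in small follicles. Both groups held a low library, large follicle replicate 2 with 42 fragments (0.910 to 1.71 FPKM) and small follicle replicate 1 with 61 fragments (1.47 to 2.47 FPKM). Its log2 fold change was 0.05, with an interval of -0.87 to 0.98, the widest among the members (limma adjusted p = 0.983). It turned negative without large follicle replicate 1 (-0.07), large follicle replicate 3 (-0.20) or small follicle replicate 1 (-0.28). SMAD2, SMAD7 and SMAD4 lie between positions 97415360 and 100633501 of chromosome 1, and SMAD3 and TGFBR1 lie farther along it.

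**Figure D4:**
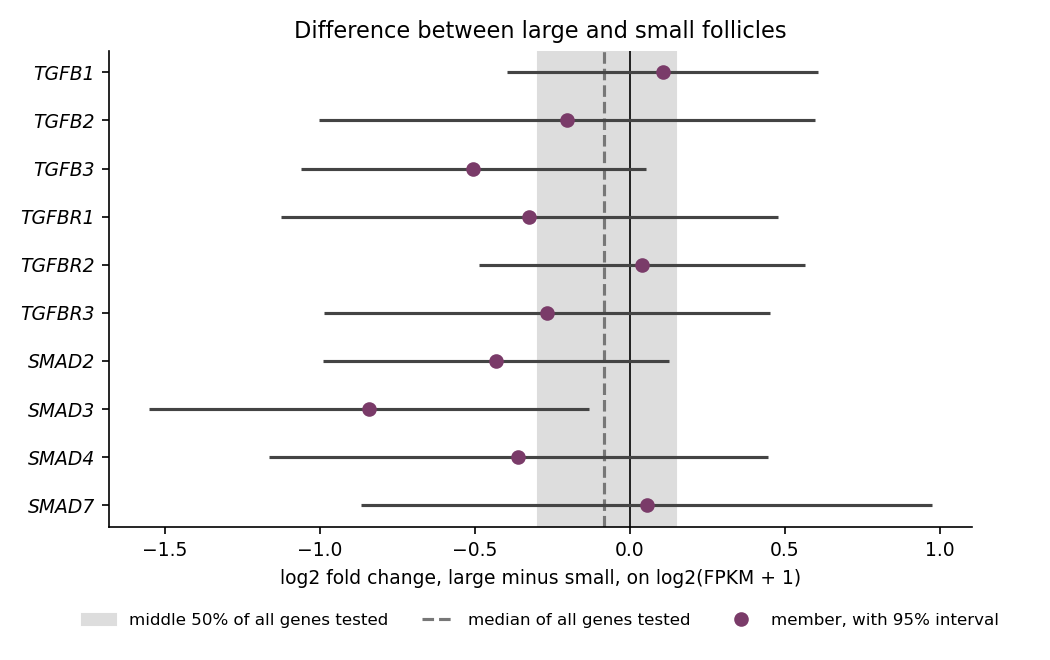
Log2 fold change of each member (x axis, large minus small, from log2(FPKM + 1) values), with its 95% limma interval; the dashed line is the median of all genes tested (-0.08) and the grey band their middle 50% (-0.30 to 0.15). SMAD3 at -0.84 is farthest from 0, and its interval of -1.55 to -0.13 is the only one that does not include 0.

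Averaged over the 5 libraries, the levels ran from TGFBR3 (36.0 FPKM) and TGFBR2 (35.9 FPKM) through TGFB1 (24.6), SMAD2 (15.7), TGFB3 (13.3), SMAD4 (9.54), TGFBR1 (9.29), SMAD3 (6.80) and TGFB2 (3.31) to SMAD7 (2.97 FPKM). TGFBR2 and TGFBR3 were at the 85.0 percentile of mean level among the genes tested and SMAD7 at the 26.2 percentile. Neighbours in this order mostly had overlapping ranges, the exception being TGFBR2 and TGFB1, whose ranges over the 5 libraries did not touch. SMAD4 and TGFBR1 could not be ordered, with SMAD4 above TGFBR1 in 2 of 5 libraries, nor could TGFBR3 and TGFBR2, with TGFBR3 above in 3 of 5. SMAD2 was above TGFB3 and TGFBR1 above SMAD3 in 5 of 5 libraries, but not always beyond counting error. The counting intervals of SMAD2 and TGFB3 overlapped in large follicle replicate 2 and small follicle replicate 2. Those of TGFBR1 and SMAD3 overlapped in large follicle replicate 2 and in both small follicle libraries. TGFB1 was also above SMAD2 in 5 of 5, but in small follicle replicate 2 both had 21.0 FPKM and their counting intervals, 19.4 to 22.8 FPKM for TGFB1 and 20.1 to 22.1 FPKM for SMAD2, overlapped.

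The members differed in how they moved from library to library. Likeness was measured as the Euclidean distance between log2(FPKM + 1) values centred on each gene's mean over the 5 libraries. TGFB2 and SMAD4 were the closest pair (0.272), followed by TGFB3 and SMAD2 (0.378) and by TGFB2 and SMAD7 (0.409). SMAD3 and SMAD7 were the farthest pair (1.45). Among other genes with a symbol, those nearest to SMAD3 were TFAM (0.0646), CHORDC1 (0.102) and RNF141 (0.121), where the median distance over genes was 1.1. TFAM, which packages mitochondrial DNA, had 1.72, 2.80 and 3.62 FPKM in large follicles, against 4.53 and 6.50 FPKM in small follicles. Nearest to TGFB3 were RAD54L, ZP2 and SCN4B (0.0883, 0.0906 and 0.106, median 0.741), and nearest to SMAD2 were CHURC1, DNMT3B and RIOX1 (0.0248, 0.0385 and 0.0542, median 0.644). ZP2, a protein of the egg coat, had 0.896, 0.897 and 0.942 FPKM in large follicles, against 1.27 and 2.32 FPKM in small follicles. These likenesses are descriptions over 5 libraries.

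Genes around the core pathway were read in 4 lists, whose counts stand against the 0.978% of all genes called and 10.4% passing 0.05 before adjustment in limma, and the 1.35% and 13.4% in voom. Of the genes for ligand latency and activation, 13 of 14 were tested and 0 were called by limma or voom (2 passed 0.05 before adjustment in limma, 2 in voom), with 4 higher and 9 lower values in large follicles and a median log2 fold change of -0.23. BMP1, a protease that processes matrix and latency proteins, had 165, 111 and 154 FPKM in large follicles, against 191 and 305 FPKM in small follicles (log2 fold change -0.77, limma adjusted p = 0.317). LTBP2, a latent TGF-beta binding protein family member of elastic fibres, had 2.05, 3.10 and 2.82 FPKM in large, against 4.44 and 6.49 FPKM in small follicles (-0.82, limma adjusted p = 0.354). Both genes were lower in every large follicle library, as were 4 of the 13 tested genes of this list in all, against 15.2% of all genes. FBN1, the microfibril protein that anchors latent complexes, overlapped between the groups, with 3.52, 8.10 and 9.91 FPKM in large and 9.55 and 13.0 FPKM in small follicles (-0.67, limma adjusted p = 0.635). The most abundant of the binding proteins, LTBP4, had 125 ± 9.04 FPKM in large and 144 ± 9.14 FPKM in small follicles (limma adjusted p = 0.818).

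Of the accessory and inhibitory genes, 20 of 20 were tested and 0 were called by limma or voom (1 passed 0.05 before adjustment in each), with 9 higher and 11 lower and a median of -0.05, which was positive with median-of-ratios scaling, quantile normalization, voom, a mean FPKM filter of 5 and without small follicle replicate 2 (0.07). PMEPA1, a membrane protein that sequesters SMAD2 and SMAD3, had 24.1, 28.6 and 29.1 FPKM in large follicles, against 20.2 and 17.6 FPKM in small follicles (log2 fold change 0.51, limma adjusted p = 0.450). FKBP1A, which holds the type I receptor inactive, had 181, 140 and 142 FPKM in large, against 107 and 130 FPKM in small follicles (0.37, limma adjusted p = 0.645). Both were higher in every large follicle library, the only 2 of the 20 to be so, against 10.9% of all genes. In 3 of the 20 every large follicle library was lower, against 15.2% of all genes. SMAD6, the inhibitor of the BMP branch, had 1.13, 0.850 and 1.46 FPKM in large, against 1.47 and 2.24 FPKM in small follicles (-0.41, limma adjusted p = 0.708).

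Of the other SMADs and SMAD partners, 10 of 11 were tested and 0 were called by limma or voom (1 passed 0.05 before adjustment in limma, 2 in voom). All 10 had negative log2 fold changes, and 9 of 10 did so with median-of-ratios scaling, quantile normalization and voom, 8 of 10 without large follicle replicate 2 and 7 of 10 without small follicle replicate 2. Their median was -0.33, against -0.08 over all genes tested. SMAD9, a SMAD of the BMP branch, had 2.02, 3.63 and 3.61 FPKM in large follicles, against 4.42 and 7.52 FPKM in small follicles (log2 fold change -0.76, limma adjusted p = 0.471). EP300, an acetyltransferase that SMADs recruit, had 4.21, 5.12 and 6.97 FPKM in large, against 7.11 and 10.2 FPKM in small follicles (-0.59, limma adjusted p = 0.570). These 2 genes were among 3 of the 10 that were lower in every large follicle library, against 15.2% of all genes. SP1, a transcription factor that works with SMADs, overlapped, with 3.94, 3.82 and 5.74 FPKM in large and 4.76 and 9.66 FPKM in small follicles (-0.53, limma adjusted p = 0.695).

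Of 30 genes known as targets of the pathway in other cells, SMAD7 among them, 29 were tested and 0 were called by limma or voom (5 passed 0.05 before adjustment in each). The list was not split by the direction in which the pathway moves each gene, so its counts and median give no direction of signalling. The tested targets had 15 higher and 14 lower values and a median of 0.05. This median became -0.07 with libraries scaled to a common FPKM sum and -0.10 with quantile normalization. It was also negative with the replicate block (-0.14) and without large follicle replicate 1 (-0.04), large follicle replicate 3 (-0.14) or small follicle replicate 1 (-0.27). The replicate block and the fit without large follicle replicate 3 give the same fold changes, so they are 1 check of direction. In 9 of the 29 every large follicle library was higher, against 10.9% of all genes. Among them were TGFBI, FN1, COL1A2, ACTA2, TAGLN, POSTN, ANGPTL4 and PMEPA1. ANGPTL4, a secreted inhibitor of lipoprotein lipase, had 71.0, 92.5 and 83.3 FPKM in large follicles, against 40.1 and 58.4 FPKM in small follicles (log2 fold change 0.75, limma adjusted p = 0.241). In the other direction IGFBP3 and LTBP2 were lower in every large follicle library, 2 of the 29 against 15.2% of all genes. Of the 9 genes, COL1A2 is also on the fibroblast marker list, and ACTA2 and TAGLN are on that of smooth muscle and pericytes. The summed levels of 8 fibroblast markers were 4068 to 5974 FPKM in large and 4215 to 4414 FPKM in small follicles, which overlap, but their median log2(FPKM + 1) was 7.96 to 8.24 in large and 7.28 to 7.51 in small follicles, which do not, and MFAP4 among them was called. Smooth muscle and pericyte sums did not overlap, but their medians did, as given above. The part of these cells in the target values was not tested.

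**Figure D5:**
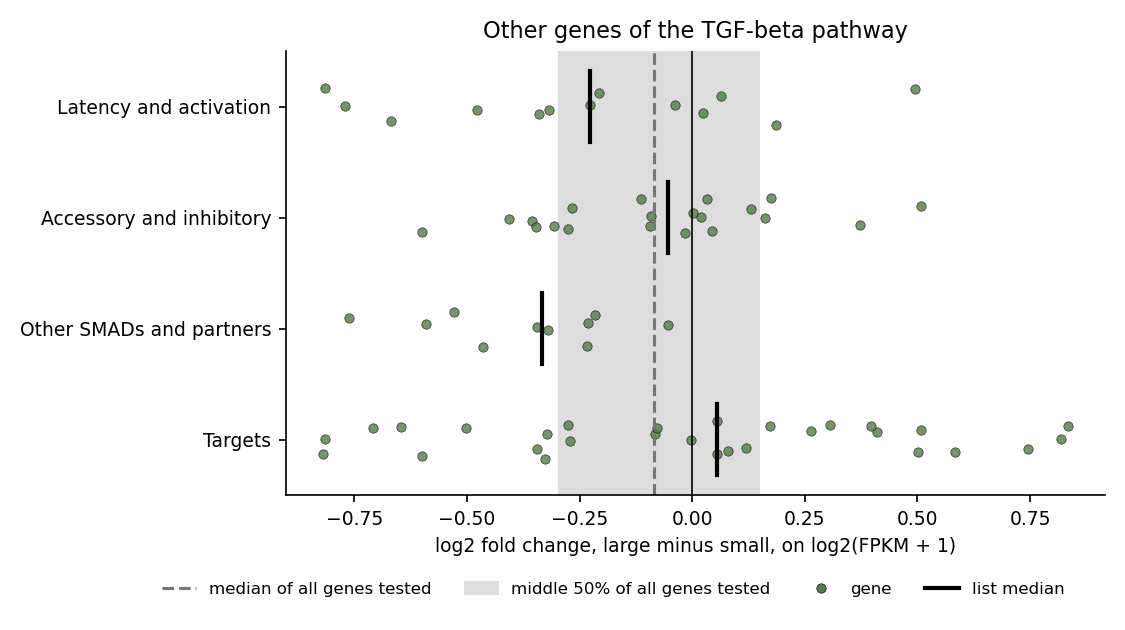
Log2 fold change, large minus small, of each tested gene in 4 lists of the TGF-beta pathway (points), with the list median (black bar), the median of all genes tested (dashed line, -0.08) and their middle 50% (grey band). All 10 points of the other SMADs and partners lie at negative values, and the 29 targets spread on both sides of 0 with a median of 0.05. The targets were not split by the direction in which the pathway moves them.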

How the data were processed

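The deposited files hold FPKM per gene, which the authors computed, with 1 library per file. Tools listed in the submitters' processing notes, without their roles, are HISAT2 2.0.5, featureCounts 1.5.0-p3, StringTie 1.3.3, Trimmomatic 0.38 and FastQC 0.11.4. The genome build listed there is Sscrofa11.1, and coordinates are those of the RefSeq annotation of that build, which matched 30335 of 30822 genes. Per the labels, TRIzol RNA went into stranded mRNA libraries.

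Library totals and fragments were recovered from the smallest FPKM steps. Of 23353 genes above 0, 49.51% gave whole fragments (within 0.001) at the listed length, and the others almost all at a shorter one. Of the members, TGFBR2 did so at its listed length, 8 at 1 shorter length, and TGFB2 at 2, of which the smaller was used. Exact Poisson 95% intervals of these fragments cover counting error only.

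Limma 3.58.1 in R 4.3.3 used a mean-variance trend and the group as the only term, with a pseudocount of 1, and fold changes on log2(FPKM + 1) understate those of low genes. Values after ± are SD. The 5 ratios within a library were tested exactly over libraries. Named genes were the members, the called genes and the 3 with the smallest p in each list, and the 3 nearest in profile to the 3 members with the smallest p. LTBP4, and targets named for not overlapping, were singled out after their values were seen. A target gene that the rule names is not reported here. The members, lists and rules were chosen with earlier results of these data known. The alternatives (15) covered pseudocounts, filters, scalings, a replicate block, the variance trend, voom with TMM scaling and each library left out. Of these, the replicate block and leaving out large follicle replicate 3 give the same fold changes, so they are not separate checks of direction.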

Additional observations from a re-analysis of the deposited data

How the results depend on the processing

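In all 15 alternative settings 0 members were called and SMAD2, SMAD3, SMAD4 and TGFB3 kept a negative log2 fold change, while 4 of the 5 ratios kept their direction in all of theirs. SMAD2, SMAD3 and TGFB3 did not overlap between the groups, so leaving out a library or changing the pseudocount could not turn their sign. The filters and the variance trend leave every fold change as it was. Nor could leaving out a library turn the ratios of TGFB3 to TGFB1 and of SMAD3 to SMAD2, which did not overlap either. The 128 genes called over the whole table became 32 with no filter, 41 with only genes of mean FPKM 5 or more (TGFB2 and SMAD7 are below it), 201 with quantile normalization and 202 with median-of-ratios scaling (111 of the 128 among them). Leaving out 1 library gave 29 to 268 calls: 29, 268 and 222 without large follicle replicates 1, 2 and 3, and 78 and 60 without small follicle replicates 1 and 2, where the lone small follicle library is assumed to vary like the large ones. A common FPKM sum moved the median of all genes from -0.08 to -0.19 and gave -0.015 for TGFB1, -0.083 for TGFBR2 and -0.041 for SMAD7, the 3 members reported above 0. With 1 library left out, log2 fold changes ranged from -0.036 to 0.247 for TGFB1, -0.47 to 0.082 for TGFB2, -0.68 to 0.03 for TGFBR1, -0.13 to 0.21 for TGFBR2, -0.53 to 0.065 for TGFBR3, -0.28 to 0.43 for SMAD7, -0.76 to -0.25 for TGFB3, -0.61 to -0.26 for SMAD2, -1.10 to -0.58 for SMAD3 and -0.63 to -0.04 for SMAD4. Differences in ratio then ranged from -0.72 to 0.10 for TGFB2 to TGFB1, -1.01 to -0.21 for TGFB3 to TGFB1, -0.55 to -0.18 for TGFBR1 to TGFBR2, -0.66 to -0.04 for TGFBR3 to TGFBR2 and -0.56 to -0.21 for SMAD3 to SMAD2. The median of the target list was -0.27 without small follicle replicate 1. The share of calls that were higher in large follicles was 54.7%, 43.4% with a common FPKM sum, 75.6% with the filter on mean FPKM, 65.0% when small follicle replicate 2 was left out and 79.3% when large follicle replicate 1 was. The cause of these changes was not tested.

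The replicate block called 157 genes and 0 members, with -0.12 for TGFBR2 and -0.20 for SMAD7. Only large follicles have a replicate 3, so the block takes that library out of the comparison. Its fold changes are therefore those of the fit without large follicle replicate 3. Deviations of same-numbered libraries correlated at -0.001 and -0.449 over genes. These values cannot decide whether the numbers pair libraries. The deviations of the 2 small follicle libraries mirror each other, and the shift that most genes share within a library enters them. The labels name no animals, so the numbers were taken only to name the libraries. With 3 against 2 libraries the 95% intervals limit what could be detected, and for SMAD7 reach from -0.87 to 0.98 on the log2 scale.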
